A study of Mus musculus with 8 samples.

Results

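*Ctla2a*, *Ctla2b* and *4930486L24Rik* are neighbouring genes on mouse chromosome 13, and they were examined here across 8 RNA-seq libraries of C3H10T1/2 cells. They were chosen by symbol, with their measured values in these same libraries known, so their levels and fold changes are given as a description, without a p-value. They are 3 of the 18605 genes in the table of estimated counts, and all 3 are among the 13470 genes with enough counts to be fitted. C3H10T1/2 is a mesenchymal stem cell line from embryos of C3H mice. The cells carried a non-target control (NC) or a lentiviral shRNA against *Nap1l2* (KD-Nap1l2), in DMEM with fetal bovine serum. Each kind was sampled uninduced and again once it had spent 7 days in osteogenic medium, with dexamethasone, ascorbic acid and β-glycerol phosphate, and the later samples are called NC-7d and KD-Nap1l2-7d. No group was kept for 7 days without this medium, so the medium and the time in culture cannot be told apart. Induction here means both together. Each of the 4 groups has 2 libraries, of 17420284 to 19427359 estimated counts. No label says that the 2 libraries of a group came from separate cultures, so every p-value measures only the spread between these libraries, which may be technical. For *Nap1l2* itself the counts were 3 and 3 (NC), 2 and 7 (KD-Nap1l2), 15 and 5 (NC-7d) and 7 and 13 (KD-Nap1l2-7d). At these counts the targeted gene is no check of the knockdown, and the groups are therefore called by their labels.

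The cysteine cathepsins are lysosomal proteases made as inactive precursors, in which a propeptide at the start of the chain covers the active site. The CTLA-2 proteins, first described in activated T cells and mast cells and also known from the placenta, resemble that propeptide without the enzyme behind it, and CTLA-2α inhibits cathepsin L. In rodents their genes lie beside a cluster of cathepsin genes that are used in the placenta.

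All 3 genes are on the minus strand of GRCm38 chromosome 13. *4930486L24Rik* (gene ID 214639 in the count table) spans 60842612 to 60864475, *Ctla2b* (13025) spans 60895350 to 60897447, and *Ctla2a* (13024) spans 60934155 to 60936625, by the GENCODE annotation. The whole stretch measures 94014 bases, with 30874 bases between *4930486L24Rik* and *Ctla2b* and 36707 between *Ctla2b* and *Ctla2a*. The annotated coding sequences show genes of different build. *Ctla2a* has 5 exons and 137 codons, and *Ctla2b* has 5 exons and 113 codons, which is the size of a propeptide. *4930486L24Rik* has 8 exons and 333 codons, and over its whole coding length it was identical to *Ctsl*, the gene of cathepsin L, at 66.6% of aligned positions. By sequence it is therefore a gene of cathepsin length, whereas *Ctla2a* and *Ctla2b* matched a stretch of the same length at the start of *Ctsl* at 53.3% and 51.0% of positions.

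*Ctla2a* and *Ctla2b* were identical to each other at 79.3% of the 411 aligned coding positions. The longest run they share closes both coding sequences, at bases 327 to 411 of *Ctla2a* and 255 to 339 of *Ctla2b*. It is shown because a read that falls in these 85 bases can belong to either gene.
last coding bases of Ctla2a and Ctla2b: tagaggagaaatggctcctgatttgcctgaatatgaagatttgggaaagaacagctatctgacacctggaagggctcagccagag
Of the 50-base windows of the *Ctla2b* transcripts, 15.44% were also found in *Ctla2a*, and 7.1% of those of *Ctla2a* were found in *Ctla2b*. With any other gene of the count table, *Ctla2a* shared 11.78%, so some of its reads could also belong to genes other than *Ctla2b*. *4930486L24Rik* shared 0 of its 1383 windows with another gene of the count table. The deposited counts of *Ctla2a* and *Ctla2b* are not whole numbers in any of the 8 libraries, while those of *4930486L24Rik* are whole in all of them. The division of reads between *Ctla2a* and *Ctla2b* is an estimate, most of all for *Ctla2b*, the rarer of the pair. GENCODE also holds 3 gene models that run across these genes, *Gm49391* from *Ctla2b* to *Ctla2a*, *Gm49392* from *4930486L24Rik* to *Ctla2b*, and *Gm49393* across all 3, and these were not analysed here. Of the 50-base windows, 88.29% of those of *4930486L24Rik* were also found in *Gm49392*, and *Gm49391* held 89.3% of those of *Ctla2b* and 24.09% of those of *Ctla2a*. Reads from such longer transcripts would be counted with these genes and cannot be told apart from theirs.

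Sequences before 1 annotated start of each gene, from RefSeq (GRCm38.p6), are shown because all 3 genes were higher after induction. They run 5′ to 3′ on the minus strand, and capitals mark each match to a motif that was searched for. The *Ctla2a* stretch is chr13:60936626-60936875 and the *Ctla2b* stretch is chr13:60897448-60897697. RefSeq also gives *Ctla2b* an outer end at 60897934, so this stretch lies before one of its starts and inside the outermost extent of the gene. *Ctla2a* has a second RefSeq start, at 60936566, whose upstream stretch overlaps the one shown. The *4930486L24Rik* stretch is chr13:60864476-60864666, which ends 60 bases before the RefSeq start because GENCODE places an exon in the bases that follow.
Ctla2a: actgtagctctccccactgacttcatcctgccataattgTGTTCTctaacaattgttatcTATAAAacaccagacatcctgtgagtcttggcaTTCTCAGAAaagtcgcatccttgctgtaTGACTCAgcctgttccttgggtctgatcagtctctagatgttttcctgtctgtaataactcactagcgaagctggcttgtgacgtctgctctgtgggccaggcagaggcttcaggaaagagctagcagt
Ctla2b: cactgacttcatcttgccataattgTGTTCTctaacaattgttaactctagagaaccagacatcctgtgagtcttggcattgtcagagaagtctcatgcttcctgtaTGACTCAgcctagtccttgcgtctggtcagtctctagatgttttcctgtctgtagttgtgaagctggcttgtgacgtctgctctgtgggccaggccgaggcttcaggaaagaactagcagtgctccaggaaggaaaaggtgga
4930486L24Rik: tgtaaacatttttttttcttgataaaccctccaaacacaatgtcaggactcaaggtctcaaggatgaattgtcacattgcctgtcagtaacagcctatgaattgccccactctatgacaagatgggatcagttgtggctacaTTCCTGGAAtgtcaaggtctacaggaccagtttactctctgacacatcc
The RefSeq promoters of *Ctla2a* and *Ctla2b*, which reach from 250 bases before to 50 after the start, were identical at 89.2% of 286 aligned positions, with a shared run of 36 bases. *4930486L24Rik* matched them at 51.9% and 52.1%, with longest runs of 7 and 8 bases. TGTTCT, the reverse complement of the glucocorticoid receptor half-site AGAACA, begins at position -211 of *Ctla2a* and -225 of *Ctla2b*, counted from the start. TGACTCA, an AP-1 site (searched as TGANTCA), begins at -129 and -143. *Ctla2a* alone of the pair holds TATAAA and TTCTCAGAA, the latter a match to the STAT motif TTCNNNGAA, and *4930486L24Rik* holds one other match to that motif, TTCCTGGAA, at -108. The 6 motifs were searched on both strands, and CCAAT and GGGCGG were found in none of these promoters. Such matches are common. Of 32851 mouse promoters of the same length, 19.0% hold AGAACA, 7.8% TGANTCA, 8.3% TTCNNNGAA, 13.6% TATAAA, 37.4% CCAAT and 35.7% GGGCGG.

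*Ctla2a* was a gene of modest level before induction and one of the most abundant transcripts after it. In FPKM, which scales reads to the length of the transcript and to the library, it stood at 6.77 and 10.21 in NC and at 9.04 and 6.95 in KD-Nap1l2. After 7 days it stood at 572.22 and 503.21 in NC-7d and at 347.62 and 407.66 in KD-Nap1l2-7d. The 4 induced libraries were all far above the 4 libraries taken before induction, and the NC and KD-Nap1l2 libraries overlapped. By FPKM, *Ctla2a* ranked from 6515 to 7880 among the 18605 genes before induction and from 101 to 187 after it. The normalised read count, scaled to the mean library, was 209.4 ± 60.8 (SD, n = 2) in NC and 13316 ± 1641 in NC-7d, a 63.6-fold higher mean. It was 195.2 ± 21.5 in KD-Nap1l2 and 9380 ± 1144 in KD-Nap1l2-7d, a 48.0-fold higher mean. The fitted log2 fold change was 5.99 (SE 0.26) in the control and 5.59 (SE 0.26) in the libraries labelled KD-Nap1l2.

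*Ctla2b*, the close relative of *Ctla2a*, started near the limit of detection. Its estimated counts were 10.17 and 9.7 in NC and 17.74 and 11.69 in KD-Nap1l2, and they were 544.21 and 536.64 in NC-7d and 512.89 and 538.06 in KD-Nap1l2-7d. The FPKM was 0.55 and 0.56 in NC, 1 and 0.58 in KD-Nap1l2, 31.84 and 28.53 in NC-7d and 28.37 and 30.81 in KD-Nap1l2-7d. The induced libraries were again far above the others, and the NC-7d and KD-Nap1l2-7d libraries overlapped. The log2 fold change with induction was 5.82 (SE 0.23) in the control and 5.14 (SE 0.22) in the libraries labelled KD-Nap1l2. An alternative fit with DESeq2 gave larger SEs, 0.40 and 0.35. The counting intervals that follow are also wider than the SEs of the main fit imply, so those SEs are too small at such counts. The ratio of the summed counts was 57.0 in the control, with a 95% counting interval of 36.7 to 93.7, and 35.5 (24.7 to 52.9) in the other pair. These intervals cover counting error only, and counts of reads without molecular identifiers are not independent molecules.

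*4930486L24Rik*, the cathepsin-length gene, had the fewest reads before induction and, in the count fit, the largest fold change of the 3 genes. In counts it stood at 7 and 3 (NC) and at 10 and 3 (KD-Nap1l2), against 387 and 536 in NC-7d and 579 and 618 in KD-Nap1l2-7d. A count of 0 would still allow up to 3 counts, so the gene was at or a little above the floor before induction. Its FPKM was 0.28 and 0.11 in NC, 0.41 and 0.12 in KD-Nap1l2, 16.35 and 21.23 in NC-7d and 23.5 and 25.78 in KD-Nap1l2-7d. The libraries before induction were all under 1 FPKM and overlapped between NC and KD-Nap1l2. Every induced library was at 16.35 FPKM or more, and the KD-Nap1l2-7d libraries were above both NC-7d libraries. The log2 fold change was 6.56 (SE 0.41) in the control and 6.52 (SE 0.39) in the libraries labelled KD-Nap1l2. With DESeq2 the SEs were 0.53 and 0.48. The ratio of summed counts was 97.3, with a 95% counting interval of 52.7 to 203.7, in the control, and 93.4 (54.4 to 175.9) in the other pair, so the size of this fold rests on few reads. The first interval also covers the ratio of *Ctla2a*, 62.9, and on the log2(FPKM + 1) scale the order was another, with 4.04 for *4930486L24Rik*, 4.32 for *Ctla2b* and 5.85 for *Ctla2a* in the control.

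**Figure D1:**
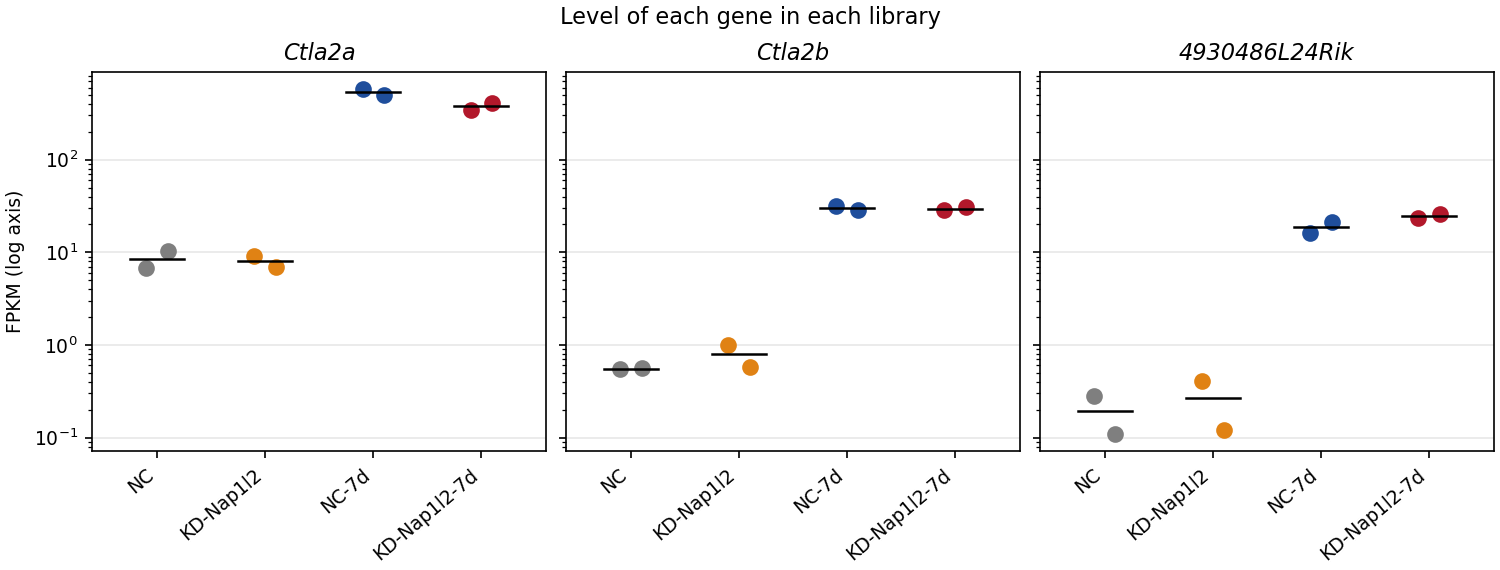
FPKM of *Ctla2a*, *Ctla2b* and *4930486L24Rik* on a shared log axis, with 1 point for each of the 2 libraries of a group and a line at their mean. In each panel the 4 libraries after 7 days of induction lie far above the 4 before it, from 6.77 to 10.21 up to 347.62 to 572.22 FPKM for *Ctla2a*.

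Set against all genes, these were large changes. Among the 13470 genes, the fold change of NC-7d against NC ranked 7 for *4930486L24Rik*, 15 for *Ctla2a* and 19 for *Ctla2b*, counted from the largest rise. For KD-Nap1l2-7d against KD-Nap1l2 the ranks were 16, 28 and 33. With the quasi-likelihood test of edgeR, adjusted by Benjamini-Hochberg over all genes, all 3 were among the genes called at an adjusted p under 0.05 in both comparisons. Calls made up 8.21% of all genes tested for NC-7d against NC, with 4.83% called higher, and 14.2% for KD-Nap1l2-7d against KD-Nap1l2, with 6.84% called higher. As the 3 genes were chosen with these values known, their count supports nothing further.

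Within the trio, *Ctla2a* made up most of the transcripts in every library. Its share of their summed FPKM was 86.5% to 93.8% over the 8 libraries. *Ctla2a* stood 9.04 to 18.2 times above *Ctla2b* on the FPKM scale, with no separation of the libraries before and after induction. The 3 genes together held 0.000995% to 0.00145% of a library's estimated counts before induction and 0.0532% to 0.0830% after it. These are bulk libraries, in which more cells that express a gene and more RNA per cell cannot be told apart.

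The transcripts of *Ctla2a* and *Ctla2b* were also counted separately. *Ctla2a* has 2 in the transcript table, and NM_007796.2 held 93.1% to 94.9% of the gene's count in the 4 induced libraries. The other, NM_001145799.1, had 763.76 and 872.33 counts in NC-7d and 555.67 and 500.24 in KD-Nap1l2-7d. Before induction NM_001145799.1 had 108.03 and 0 counts (NC) and 123.73 and 0 (KD-Nap1l2). Its share at that time ran from 0% to 63.9% between libraries of a group, and no change of transcript use can be read from it. *Ctla2b* has 4 transcripts, of which NM_001145801.1 held 50.1% to 63.0% and NM_007797.1 held 28.4% to 39.5% after induction. With at most 17.74 counts for the whole gene in a library before induction, no use of transcripts can be read there. *4930486L24Rik* has 1 transcript in the table.

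**Figure D2:**
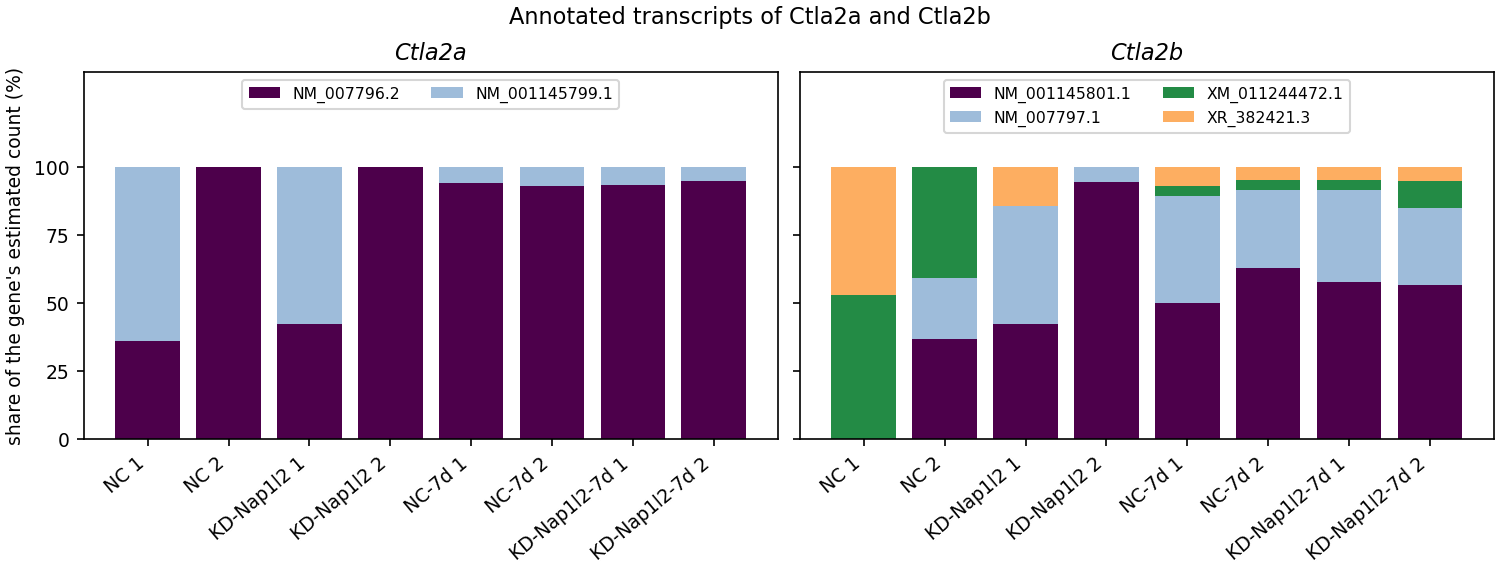
Share of the estimated count of *Ctla2a* (left) and *Ctla2b* (right) held by each annotated transcript, as stacked bars for each library. After induction NM_007796.2 holds 93.1% to 94.9% of *Ctla2a* and NM_001145801.1 holds 50.1% to 63.0% of *Ctla2b*, whereas the libraries before induction scatter.

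Far fewer genes were called for the labelled knockdown than for induction. Before induction, edgeR called 11 of 13470 genes between KD-Nap1l2 and NC, or 0.0817%, and none of the 3 genes was among them. At an unadjusted p under 0.05 there were 1852 genes, DESeq2 called 460, and edgeR called between 0 and 562 with 1 library left out, with 0 without the second NC or the second KD-Nap1l2 library and 562 without the first KD-Nap1l2 library. Between KD-Nap1l2-7d and NC-7d it called 0 genes (0%), with 1057 genes at an unadjusted p under 0.05, and DESeq2 called 79. The groups did not overlap in 43.2% of all genes before induction and in 42.1% at 7 days, so separation of 2 libraries from 2 is common in these data.

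Before induction, the log2 fold change of KD-Nap1l2 against NC was -0.10 (SE 0.23) for *Ctla2a*, 0.65 (SE 0.29) for *Ctla2b* and 0.44 (SE 0.62) for *4930486L24Rik*. Of these only the groups of *Ctla2b* did not overlap, at counts of about 10 in NC. With DESeq2 the SE for *Ctla2b* was 0.475. Without the second NC library, the value for *Ctla2a* became 0.23, and without the first KD-Nap1l2 library that for *4930486L24Rik* became -0.60. At 7 days, *Ctla2a* was lower in both KD-Nap1l2-7d libraries (8570 and 10189 normalised counts) than in both NC-7d libraries (14476 and 12156). The means stood at 0.70 to 1, and the log2 fold change was -0.51 (SE 0.21). *4930486L24Rik* lay the other way, with 580.4 and 645.3 normalised counts in KD-Nap1l2-7d against 414.3 and 513.9 in NC-7d, which is 0.40 (SE 0.26) on the log2 scale. *Ctla2b* overlapped, with a log2 fold change of -0.03 (SE 0.16). The ratio of *Ctla2a* to *4930486L24Rik* by FPKM was therefore 35.0 and 23.7 in NC-7d and 14.8 and 15.8 in KD-Nap1l2-7d. *Ctla2a* and *4930486L24Rik* lay in opposite directions between these groups, a difference between genes that was not tested, and both shifts were small beside the rise with induction.

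**Figure D3:**
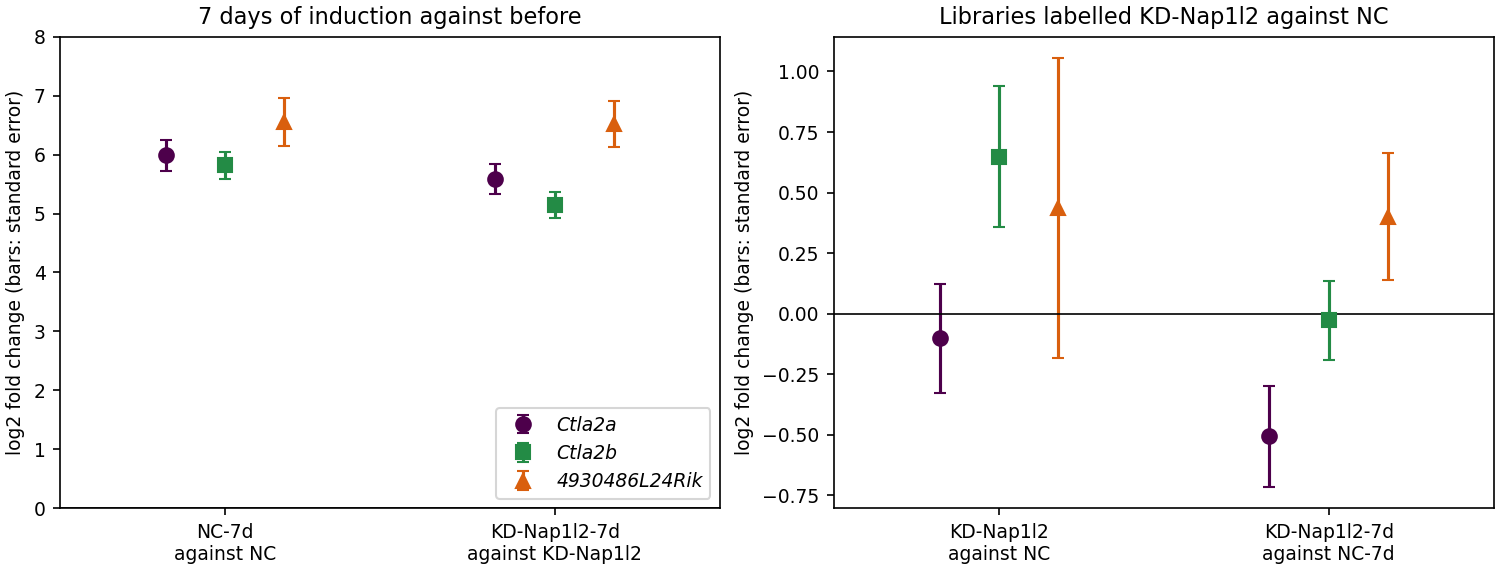
Fitted log2 fold change of each gene, with bars of 1 standard error, for induction (left) and for the libraries labelled KD-Nap1l2 against NC (right), whose axes differ in range. Induction values lie between 5.14 and 6.56, and those on the right between -0.51 and 0.65. The comparisons share libraries and are not independent.

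Whether the rise with induction differed between the labelled knockdown and the control is asked by the difference of the knockdown effects at 7 days and before. Across all genes edgeR called 0 (0%) for it, with 948 at an unadjusted p under 0.05, and DESeq2 called 98. The difference was -0.40 (SE 0.31) for *Ctla2a*, -0.68 (SE 0.33) for *Ctla2b* and -0.03 (SE 0.54) for *4930486L24Rik* on the log2 scale. With DESeq2 the SEs were larger, 0.53 for *Ctla2b* and 0.711 for *4930486L24Rik*. For *Ctla2a* the difference became -0.14 without the first NC library and -0.74 without the second.

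*Tpbpa*, a gene of trophoblast named here for its position next to *Ctla2a*, had 0 counts in 5 libraries and at most 5 in the others. On the far side of *4930486L24Rik*, the nearest gene with enough counts was *Dapk1*, which encodes a death-associated kinase. For *Dapk1* there were 292 and 309 counts in NC, 458 and 591 in NC-7d, 429 and 379 in KD-Nap1l2 and 331 and 311 in KD-Nap1l2-7d. Its log2 fold change was 0.88 (SE 0.14, adjusted p = 0.0101, edgeR) for NC-7d against NC and -0.31 (SE 0.14, adjusted p = 0.165, edgeR) for KD-Nap1l2-7d against KD-Nap1l2. Of a list of 12 placental cathepsin cluster genes, 4 were in the table used, and their summed FPKM was between 0.02 and 0.35 in every library. The other 8, among them *Tpbpb*, *Ctsll3* and *Ctsj*, were not analysed here.

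CTLA-2α is known to inhibit cathepsin L, and other cysteine cathepsins and legumain were listed with it for comparison. Of 11 cysteine cathepsins and legumain, 8 had enough counts, and edgeR called 1 higher and 1 lower in NC-7d against NC. It called 3 higher and 0 lower in KD-Nap1l2-7d against KD-Nap1l2. These are 25% and 37.5% of the 8, beside 8.21% and 14.2% of all genes. The median log2 fold change of the 8 was 0.33 and 0.66 in the 2 comparisons, against -0.004 and -0.007 over all genes. *Ctsl* was at 296.01 and 271.57 FPKM in NC and at 446.83 and 319.3 in NC-7d, and at 231.73 and 345.52 in KD-Nap1l2 and 665.58 and 627.52 in KD-Nap1l2-7d. Both induced groups lay above their own start, by a log2 fold change of 0.43 (SE 0.26, adjusted p = 0.352, edgeR) in the control and 1.15 (SE 0.26, adjusted p = 0.0269) in the other pair.

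*Ctsh*, an aminopeptidase of the family, gave 0.94 (SE 0.21, adjusted p = 0.027, edgeR) in KD-Nap1l2-7d against KD-Nap1l2. *Lgmn*, which encodes legumain, an asparaginyl endopeptidase of the lysosome, gave 0.72 (SE 0.17, adjusted p = 0.0434, edgeR) in NC-7d against NC and 0.66 (SE 0.17, adjusted p = 0.0417) in the other pair. *Ctso* fell by 0.55 (SE 0.13, adjusted p = 0.0392, edgeR) on the log2 scale in NC-7d against NC. These calls did not hold throughout. Leaving out any single library of NC or NC-7d left 0 of the 8 called, and so did leaving out either KD-Nap1l2-7d library in the other pair. A fit of just the 4 libraries of each comparison called 1 in each. The largest called change of a cathepsin gene, 1.15 for *Ctsl*, compares with 5.14 to 6.56 for *Ctla2a*, *Ctla2b* and *4930486L24Rik* on the same log2 scale.

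Other cysteine protease inhibitors include genes with larger changes. Of 22 on the list, 16 were in the table and 8 had enough counts. The 8 include *Spink5* and *Serpinb6a*, whose families are named for inhibiting serine proteases, and neither was called with induction. In NC-7d against NC 3 were called higher and 0 lower, and in KD-Nap1l2-7d against KD-Nap1l2 4 were called higher and 0 lower. These are 37.5% and 50% of the 8, beside 4.83% and 6.84% of all genes called higher. The median log2 fold change of the 8 was 0.52 and 0.85. *Kng1* and *Kng2*, which encode kininogens, plasma proteins with cystatin domains, rose the most. *Kng1* was at 0.08 and 0.15 FPKM in NC, 7.24 and 2.37 in NC-7d, 0.08 and 0.13 in KD-Nap1l2 and 15.31 and 16.58 in KD-Nap1l2-7d. Its log2 fold change was 5.45 (SE 0.69, adjusted p = 0.00519, edgeR) in the control and 7.46 (SE 0.71, adjusted p = 0.00117) in the other pair. No library taken before induction held more than 5.61 normalised reads of *Kng1*, so the size of these folds rests on few reads. *Kng1* passed the count filter through its level after induction. Its calls and its part in the 37.5% and 50% are therefore not independent of that rise. *Kng2* gave 3.50 (SE 0.47, adjusted p = 0.00605, edgeR) and 4.24 (SE 0.49, adjusted p = 0.00248). The 2 kininogen genes are related, and how reads were divided between them was not tested.

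*Fetub*, which encodes the cystatin-like plasma protein fetuin-B, gave 2.91 (SE 0.42, adjusted p = 0.00845, edgeR) and 3.01 (SE 0.42, adjusted p = 0.00502). *Cst3*, which encodes cystatin C, the most abundant secreted inhibitor on the list at 918.41 to 2955.31 FPKM, was called only in KD-Nap1l2-7d against KD-Nap1l2, at 1.17 (SE 0.27, adjusted p = 0.0276, edgeR). In the control it gave 0.27 (SE 0.27, adjusted p = 0.578), and the difference between the 2 was not called. Without the first NC library, 0 of the 8 inhibitors were called in NC-7d against NC. Neither list had a gene called by edgeR between the labelled knockdown and NC before induction, between them at 7 days, or for the difference of these effects. At an unadjusted p under 0.05 there were 4, 1 and 3 of the 8 genes on the list of cathepsins and legumain. On the inhibitor list there were 1, 1 and 1 of 8. These stand beside 13.7%, 7.85% and 7.04% of all genes, so that 1 of 8 is near the background. DESeq2 called 2, 0 and 0 and 1, 1 and 0.

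**Figure D4:**
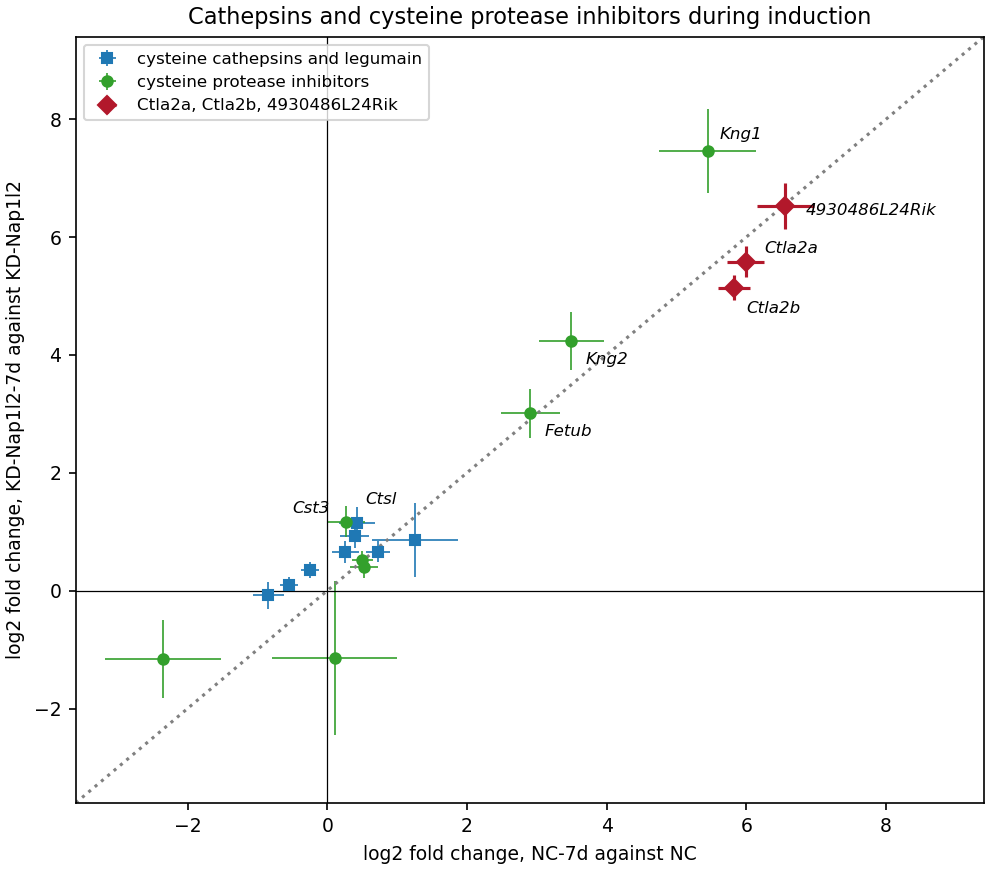
Log2 fold change with induction in the control (horizontal) and in the libraries labelled KD-Nap1l2 (vertical), with bars of 1 standard error. Squares are the 8 tested genes of the list of cathepsins and legumain. Circles are the 8 tested genes of the inhibitor list, diamonds are the 3 genes described here, and the dotted line marks equal values. *Ctla2a*, *Ctla2b* and *4930486L24Rik* lie between 5.14 and 6.56 on both axes, near *Kng1*, while the squares lie near the origin.

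The genes whose pattern over the 8 libraries was most like each of the 3 were found by Pearson's r of log2 CPM (counts scaled to the library) among 11280 genes. With 4 low and 4 high libraries, r mostly records the rise with induction, and all points share the same libraries and scaling. For *Ctla2a* these were *Mertk* (r = 0.998), a receptor kinase that binds apoptotic cells, *Il17ra* (0.997), the receptor of interleukin 17, *Fkbp5* (0.996), a co-chaperone of steroid receptors, *Adarb1* (0.994), an RNA-editing deaminase, and *Aldh1a7* (0.994), an aldehyde dehydrogenase. For *Ctla2b* they were *Mertk* (0.995), *Il17ra* (0.994), *4930486L24Rik* (0.993), *Ccdc152* (0.993) and *Ctla2a* (0.993). For *4930486L24Rik* they were *Mark1* (0.994), a kinase of microtubule-binding proteins, *Ctla2b* (0.993), *Clint1* (0.990), which binds clathrin, *Map7d2* (0.989) and *Tmem19* (0.989). *4930486L24Rik* and *Ctla2a* reached 0.982, which placed *Ctla2a* at rank 18 for *4930486L24Rik* and *4930486L24Rik* at rank 52 for *Ctla2a*.

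A like pattern did not mean a like size. *Fkbp5* had 152.7 and 329.1 normalised counts in NC, 9059 and 6385 in NC-7d, 183.0 and 174.8 in KD-Nap1l2 and 7306 and 7093 in KD-Nap1l2-7d. Its rise, 5.0 (SE 0.37) and 5.33 (SE 0.38) on the log2 scale, was near that of *Ctla2a*. *Aldh1a7* gave 7.10 (SE 0.46) and 6.69 (SE 0.46). *Mertk* rose by only 1.90 (SE 0.13) and 1.82 (SE 0.13), and *Il17ra* by 0.81 (SE 0.11) and 0.83 (SE 0.11). With Spearman's rho in place of r, the 5 genes highest for each member were all others.

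**Figure D5:**
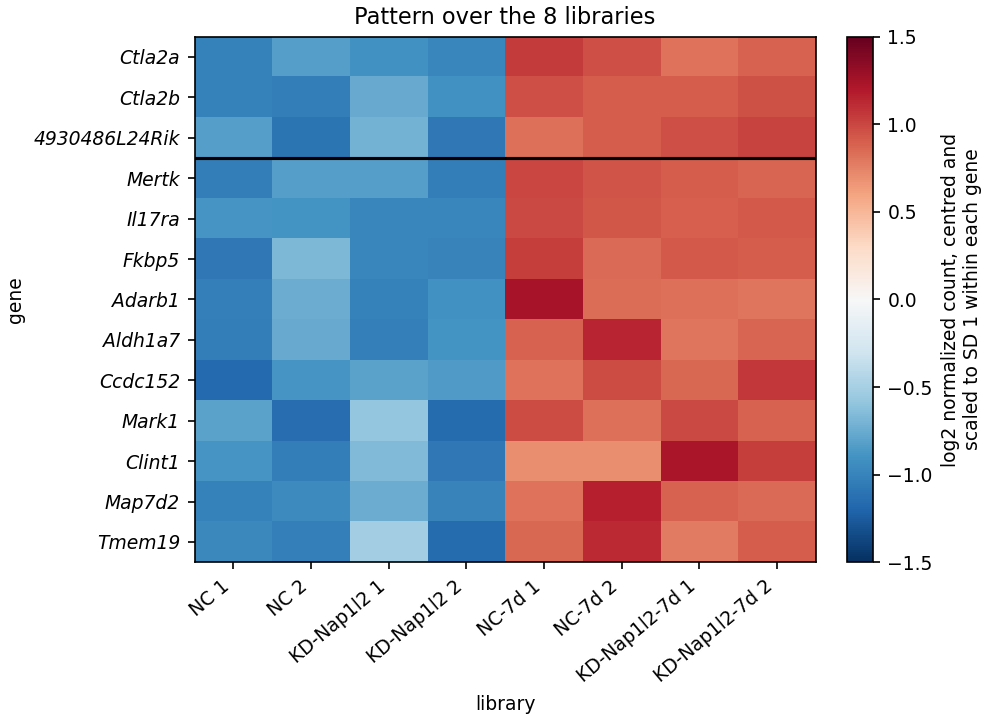
Pattern of the 3 genes (above the line) and of the genes most like them over the 8 libraries. Each cell is the log2 of the normalised count plus 2, centred and scaled within its gene, and every gene is low in the 4 libraries before induction and high in the 4 after it.

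The libraries were checked for the other cells in which these genes are known. All 9 T cell markers in the table were under 1 FPKM in every library, with a summed level of 0.5 to 0.97 FPKM, highest for *Cd8a*. All 6 mast cell markers were under 1 FPKM too, with a sum of 0.3 to 1.51, highest for *Hdc*. The 5 trophoblast markers summed to 0.32 to 0.64, highest for *Ascl2*. The 8 endothelial markers summed to 1.1 to 2.84, highest for *Vwf*, and the 5 macrophage markers to 4.78 to 12.27, highest for *Cd68*, which other cells also express. The part of such cells in the levels of the 3 genes was not tested. Of these lists, 2 T cell, 1 mast cell, 1 trophoblast, 4 endothelial and 3 macrophage markers had enough counts to be tested. With induction, edgeR called 1 of them, *Tek*, named after its value was seen. *Tek* fell by 2.81 (SE 0.45, adjusted p = 0.00825) on the log2 scale in KD-Nap1l2-7d against KD-Nap1l2. In that comparison 14.2% of all genes were called, so 1 call among these markers is no result about them.

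The mesenchymal markers were present, with *Vim* highest at 1562 to 4538 FPKM, except *Nt5e*, which was under 1 FPKM in every library. Their summed level, most of it from *Vim*, *S100a4* and *Ly6a*, was 8556 to 10602 FPKM before it and 4933 to 6991 FPKM after it. Of the 11 tested, 1 was called lower and 0 higher in NC-7d against NC, and 5 lower and 0 higher in KD-Nap1l2-7d against KD-Nap1l2. These are 9.09% and 45.5% of the 11, so that the first is close to the 8.21% of all genes and the second lies above the 14.2%. By fitted value, called or not, 7 were below 0 and 4 above 0 in each comparison, with *Cd44* at 0.09 and 0.01 and *Eng* at 0.23 and 0.46 on the log2 scale. The part of the lower sum in the rise of *Ctla2a*, *Ctla2b* and *4930486L24Rik* was not tested.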

How the data were processed

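RNA of 8 libraries in 4 groups of 2 was analysed, with groups taken from the labels. For every library, the authors deposited estimated counts of genes and of transcripts, not normalized, and level values that fit FPKM, although the deposited header names them only as expression. The submitters' processing notes name RSEM, Bowtie2, BWA and GRCm38.p6, and versions are not given in the sources used here. The authors' deposited comparisons (log2 fold changes, p-values and q-values from DESeq2) were not used.

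Estimated counts were rounded, scaled by TMM and filtered with filterByExpr (13470 of 18605 genes). All 8 libraries were fitted with edgeR 4.0.16 (R 4.3.3), and contrasts were tested by the quasi-likelihood test with Benjamini-Hochberg adjustment over all genes, with calls at 0.05. Library totals were 17420284 to 19427359, and a count of 0 allows up to 3 counts. The fit was tested on simulated data. Same-numbered libraries were not paired, as the correlations of their deviations ran from -0.061 to 0.104, and replicates differed by more than counting noise. Alternatives used DESeq2 1.42.0, limma 3.58.1 on log2(FPKM + 1) or log2(FPKM + 0.1), RLE size factors, no filter, fits restricted to the compared libraries, the replicate number as a block, and leaving out each library.

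The genes described and the lists were chosen with earlier results of these data known. Named genes are the 3 genes, *Nap1l2*, the 5 genes most correlated with each (mean normalized count of at least 50, prior count 2), list genes that were called or else the highest in FPKM, and the highest marker of each list. Genes named for their position, and *Tek*, fall outside this rule. Sequences came from RefSeq promoters and GENCODE vM21 transcripts (Python 3.11.15, Biopython 1.88), where all 3 genes were found, and figures were drawn with matplotlib 3.10.9.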

Additional observations from a re-analysis of the deposited data

How the results depend on the processing

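In 74 of 74 alternative values of the induction comparisons, the 3 genes stayed higher at 7 days, at 4.042 to 7.56 on the log2 scale. Of all 193 alternative values, 166 lay within 1 SD of the value reported. The SD is that of log2 CPM within the groups compared, from the same 2 libraries a group that are left out in turn. Several settings also repeat the main fit almost exactly, so this share is no measure of robustness. With limma on log2(FPKM + 1), which pulls low genes towards 0, the change was 4.042 (control) and 4.349 (labelled KD-Nap1l2) for *4930486L24Rik*, 4.324 and 4.104 for *Ctla2b*, and 5.401 for *Ctla2a* in the labelled KD-Nap1l2. With log2(FPKM + 0.1) it was 6.051 for *4930486L24Rik* and 5.529 for *Ctla2b* in the control. For *Ctla2b*, these 2 scales gave 0.193 and 0.401 for KD-Nap1l2 against NC before induction, and -0.22 and -0.429 for the knockdown difference.

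Leaving out 1 library at a time moved *4930486L24Rik* between 6.049 and 7.308 for NC-7d against NC, between 5.952 and 7.56 for KD-Nap1l2-7d against KD-Nap1l2, between -0.601 and 1.184 for KD-Nap1l2 against NC, and between -0.784 and 1.001 for the knockdown difference. *Ctla2a* moved between 5.72 and 6.322 for NC-7d against NC, between -0.371 and 0.23 for KD-Nap1l2 against NC, and between -0.736 and -0.135 for the difference. *Ctla2b* moved between 4.924 and 5.415 for KD-Nap1l2-7d against KD-Nap1l2, between 0.377 and 0.868 for KD-Nap1l2 against NC, and between -0.895 and -0.405 for the difference. The lone library left in a group is assumed to vary like the other groups.

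Counts of called genes depended more on the setting. For KD-Nap1l2 against NC, 11 genes became 460 with DESeq2, 22 and 5 with limma on the 2 FPKM scales, 160 with no filter, 0 with only the compared libraries, 4 with the replicate block, and 0 to 562 with 1 library left out. For KD-Nap1l2-7d against NC-7d, 0 became 79 with DESeq2 and 0 to 1 with 1 library left out. For the difference, 0 became 98 with DESeq2, 1 with no filter and 0 to 19 with 1 library left out. NC-7d against NC gave 122 to 926 in place of 1106 with 1 library left out, and KD-Nap1l2-7d against KD-Nap1l2 gave 305 to 2200 in place of 1912. The cause was not tested. The replicate block gave 961, 1757, 0 and 0 calls in the other 4 comparisons, and the libraries share only a number. On the list of cathepsins and legumain it gave 0 calls in place of 2 for NC-7d against NC, and 2 in place of 3 for KD-Nap1l2-7d against KD-Nap1l2. With Spearman's rho, 0 of the 5 most similar genes were shared for each of *Ctla2a*, *Ctla2b* and *4930486L24Rik*. Before induction, the 3 to 17.74 counts per library of *Ctla2b* and *4930486L24Rik* limit the precision of their folds.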
